A study of Homo sapiens with 6 samples.

Results

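Genes encoding nuclear receptor co-activators and co-repressors were followed after CDK12 knockdown in LY2, a breast cancer line that carries the estrogen receptor (ER) and is resistant to endocrine therapy. CDK12 is a cyclin-dependent kinase of the transcription machinery, known for its part in elongation. The genes were chosen by symbol and are 9 of the 17939 genes in the expression table: the p160 co-activators NCOA1, NCOA2 and NCOA3, the acetyltransferases EP300 and CREBBP, and the co-repressors NCOR1, NRIP1, TLE3 and LCOR. Per the study's methods, all cells were grown without phenol red, in charcoal-stripped serum and with 4-hydroxytamoxifen, and both serum and 4-hydroxytamoxifen were withdrawn before transfection. They received a pool of siRNAs against CDK12 (siCDK12) at 30 nmol/L, or a non-targeting pool (siCtrl) at that dose, and RNA was taken 48 hours later. Each group had 3 libraries, which the study describes as biological replicates of this 1 cell line. RNA was measured by paired-end sequencing and expressed as FPKM, that is, fragments scaled by transcript length and by the mapped total of the library, so that levels are given per length and can be set side by side between genes.

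Nuclear receptors such as ER act on transcription through proteins that do not bind DNA themselves. On hormone binding the receptor takes up a p160 co-activator, which in turn brings in the acetyltransferases p300 (EP300) and CBP (CREBBP), whereas co-repressor complexes bring in histone deacetylases. NCOR1 is best known for binding receptors without agonist, NRIP1 (also called RIP140) and LCOR bind receptors that carry an agonist and limit their output, and TLE3 belongs to the Groucho family, which is recruited by DNA-bound factors of several kinds.

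The libraries were alike in overall measures. Between 11488 and 11538 genes reached 1 FPKM per library, the FPKM sum ranged from 448633 to 461038, and libraries correlated at r from 0.9955 to 0.9966 within groups and from 0.9897 to 0.9913 between groups, across genes. Of the luminal epithelial markers checked, 6 (KRT8, KRT18, KRT19, EPCAM, GATA3, FOXA1) were high in every library. Their sum lay between 4634 and 4678 FPKM with siCtrl and between 5031 and 5153 FPKM with siCDK12. By the test described below, KRT8, KRT18 and GATA3 were higher with siCDK12, and KRT19, EPCAM and FOXA1 did not pass. The luminal marker ESR1, outside this sum, was lower with siCDK12 (log2 fold change -0.33, limma adjusted p = 0.000187). The 9 markers of leukocytes, endothelium, fibroblasts and basal cells summed to 42.6 to 43.3 FPKM with siCtrl and 42.9 to 44.1 FPKM with siCDK12, almost all of it from VIM (lower with siCDK12) and COL1A1 (higher), while CD3E and KRT14 were at 0 throughout and PTPRC, PECAM1, COL1A2 and KRT5 did not exceed 0.09 FPKM. Their part in the results below was not tested. CDK12 itself stood at 2.23, 2.83 and 2.44 FPKM with siCDK12 and at 11.17, 10.70 and 10.30 FPKM with siCtrl. In such bulk RNA, fewer cells of a kind and less RNA per cell cannot be told apart.

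Of the 9 co-regulator genes, all of which passed the filter of a mean of at least 1 FPKM, 2 were lower with siCDK12 (NRIP1 and NCOA3), 3 were higher (CREBBP, NCOA2 and TLE3) and 4 did not pass the test (NCOA1, EP300, NCOR1 and LCOR). The test was limma with Benjamini-Hochberg adjustment over 11533 genes, with 0.05 as the limit on the adjusted p for a call. Over all genes tested, 28.3% were called, 16.1% higher and 12.3% lower. With median-ratio scaling more genes were lower than higher, and the study too reported more falls than rises. The siCDK12 and siCtrl values did not overlap in 5 of the 9 genes, 3 higher and 2 lower, beside 43.1% of all genes tested (25.4% higher and 17.8% lower). Only NRIP1 moved by more than 0.2 on the log2 scale, and the median log2 fold change of the 9 genes was 0.09, beside 0.03 for all genes tested.

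**Figure D1:**
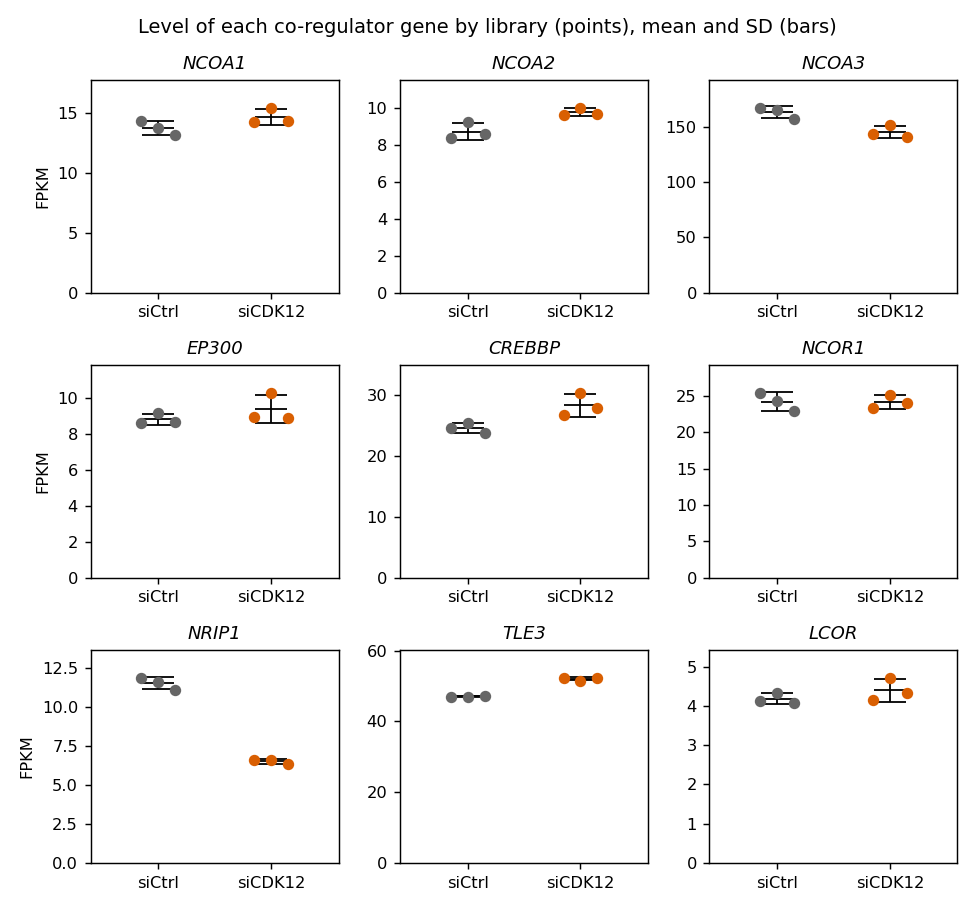
FPKM of each of the 9 co-regulator genes (vertical axes, starting at 0) in the 3 siCtrl and 3 siCDK12 libraries, one point per library in the order of replicate number, with the group mean and SD as bars. The NRIP1 points with siCDK12 lie between 6.30 and 6.60 FPKM, below all 3 siCtrl points at 11.08 to 11.85 FPKM, and NCOR1 and LCOR show points of both groups at the same heights.

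The largest change was a fall of NRIP1, a co-repressor of agonist-bound receptors and itself a known ER target gene. NRIP1 (GRCh38.p14, chromosome 21, 14961235 to 15065936, minus strand, 4 exons) was at 11.85, 11.55 and 11.08 FPKM with siCtrl and at 6.60, 6.59 and 6.30 FPKM with siCDK12. The groups were far apart relative to their spread, with means of 11.5 ± 0.388 and 6.50 ± 0.170 FPKM (SD, n = 3), so that siCDK12 libraries held 56.5% of the siCtrl level. On the log2 scale the change was -0.81 (SE 0.0531, 95% interval -0.93 to -0.70, limma adjusted p = 4.49e-06), and 66 of the 11533 genes tested fell further. The study named NRIP1 among the ER targets lowered in these same samples, so its direction here is not independent evidence. An exact two-sided permutation test over the libraries cannot go below 0.1 with 3 against 3, and it stood at p = 0.1 for each of the 5 called genes, at 0.3 for NCOA1, EP300 and LCOR and at 1 for NCOR1.

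Since NRIP1 and NCOA3 were the 2 members that fell, the 300 bases around a start site of each are shown, from RefSeq on GRCh38.p14, from 250 bases before the start to 50 bases after it, read on the gene's strand. Capitals mark the ER half-site GGTCA (or TGACC on the other strand) and the GC box GGGCGG (or CCGCCC), the letters that Sp factors bind.
NRIP1, chr21:15064951-15065250, minus strand: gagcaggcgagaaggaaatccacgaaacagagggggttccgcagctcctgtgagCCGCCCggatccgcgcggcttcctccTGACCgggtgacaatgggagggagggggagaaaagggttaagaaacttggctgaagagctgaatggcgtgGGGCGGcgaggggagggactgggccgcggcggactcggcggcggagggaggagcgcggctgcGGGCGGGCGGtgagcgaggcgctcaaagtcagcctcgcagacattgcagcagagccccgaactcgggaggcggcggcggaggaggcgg
NCOA3, chr20:47501637-47501936, plus strand: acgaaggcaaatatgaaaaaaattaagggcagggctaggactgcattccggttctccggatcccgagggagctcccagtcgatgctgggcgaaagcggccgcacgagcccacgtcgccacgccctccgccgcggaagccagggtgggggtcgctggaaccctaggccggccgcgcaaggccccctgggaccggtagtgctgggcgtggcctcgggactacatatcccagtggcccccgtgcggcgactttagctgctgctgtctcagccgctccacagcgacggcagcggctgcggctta

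The NRIP1 window held 1 half-site and 4 GC boxes, 2 of them overlapping, and the half-site began 170 bases before the start (offset -170). The NCOA3 window held neither motif. RefSeq windows matched 8 of the 9 genes (all but NCOA2), 17 windows in all because several genes have more than 1 start. The half-site was found in 1 of these 17 windows, beside 37.4% of all 35116 windows of this length. NRIP1 has 3 windows, and the 2 not shown, among them that of its outermost start, held 0 half-sites. The full estrogen response element (GGTCA, any 3 bases, TGACC) was found in 0 of 17 beside 0.057%. A GC box was found in 10 of 17 windows, over 5 genes, beside 45.0% of all windows. Such a match is a description of the letters, and the RNA data do not bear on whether a factor is bound there. The study measured ER binding in LY2 by chromatin immunoprecipitation and sequencing, and it reported less binding at NRIP1 after CDK12 knockdown. For that assay the cells were treated with estradiol after transfection, a step the study's methods do not name for the RNA. The binding data were not used here.

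The p160 co-activators did not move together: NCOA3 fell, NCOA2 was higher by a narrow margin and NCOA1 did not pass the test. NCOA3 (also called SRC-3 or AIB1, chromosome 20, 47501887 to 47656872) was the most abundant of the 9 genes, at 167.28, 165.37 and 157.23 FPKM with siCtrl and 143.28, 151.54 and 140.73 FPKM with siCDK12. No siCDK12 library reached the lowest siCtrl library, and the mean fell from 163 ± 5.34 to 145 ± 5.65 FPKM (SD, n = 3), to 88.9% of the siCtrl level. Its log2 fold change of -0.17 (SE 0.0391, 95% interval -0.26 to -0.08, limma adjusted p = 0.00883) was exceeded in size by 31.1% of all genes tested. The gene SULF2, which encodes a heparan sulfate sulfatase, lies on the opposite strand and overlaps the NCOA3 locus, but the canonical transcripts share 0 exon bases and SULF2 did not pass the test (252 ± 1.40 against 251 ± 3.07 FPKM, SD, n = 3, log2 fold change 0.00, limma adjusted p = 0.969).

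NCOA2 (also called SRC-2 or TIF2, chromosome 8) stood at 9.63, 10.02 and 9.66 FPKM with siCDK12 and at 8.36, 9.22 and 8.57 FPKM with siCtrl. The groups did not overlap, but siCtrl replicate 2 came close to the siCDK12 libraries. The mean was 9.77 ± 0.217 against 8.72 ± 0.448 FPKM (SD, n = 3), a log2 fold change of 0.16 (SE 0.0550, 95% interval 0.04 to 0.28, limma adjusted p = 0.0461). That call was lost in 12 of 17 alternative settings, among them every omission of 1 library other than siCtrl replicate 2, with adjusted p from 0.0324 to 0.136 and a positive sign throughout.

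NCOA1 (also called SRC-1, chromosome 2, 24491254 to 24770702) was at 14.27, 15.50 and 14.36 FPKM with siCDK12 and 14.38, 13.78 and 13.21 FPKM with siCtrl. The groups overlapped at siCtrl replicate 1, which was above both of the lower siCDK12 libraries. The log2 fold change was 0.09, with a 95% interval of -0.02 to 0.21 (limma adjusted p = 0.211), so that a fall of the size seen in NCOA3 lay outside it. Without siCDK12 replicate 2 it was 0.05. Summed over the 3 p160 genes, the level was 170 ± 6.52 FPKM with siCDK12 against 186 ± 5.94 FPKM with siCtrl (SD, n = 3), and most of that sum was NCOA3.

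Among the acetyltransferases, CREBBP was higher with siCDK12 and EP300 did not pass the test. CREBBP (chromosome 16, 3725054 to 3880713) was at 26.71, 30.46 and 27.91 FPKM with siCDK12 and 24.70, 25.52 and 23.77 FPKM with siCtrl. Every siCDK12 library was above every siCtrl library, and siCDK12 replicate 2 was the highest of the 6. The mean was 28.4 ± 1.92 against 24.7 ± 0.876 FPKM (SD, n = 3), and siCDK12 minus siCtrl came to 0.20 in log2 (SE 0.0524, 95% interval 0.08 to 0.31, limma adjusted p = 0.0169). The call was lost without siCDK12 replicate 2 (log2 fold change 0.15, adjusted p = 0.0611) and without siCtrl replicate 3 (0.17, adjusted p = 0.0501), over a range of 0.00732 to 0.0611 in all 17 alternatives.

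EP300 (chromosome 22, 41092592 to 41180077), the paralog of CREBBP, was at 8.90, 10.27 and 8.89 FPKM with siCDK12 and 8.58, 9.16 and 8.62 FPKM with siCtrl. Only siCDK12 replicate 2 stood above all the siCtrl libraries. The means were 9.35 ± 0.794 and 8.79 ± 0.324 FPKM (SD, n = 3), with a log2 fold change of 0.09 and a 95% interval from -0.06 to 0.23 (limma adjusted p = 0.354). Without siCDK12 replicate 2 it was 0.02. The ratio of CREBBP to EP300 within a library was 3.04 ± 0.0917 with siCDK12 and 2.81 ± 0.0634 with siCtrl (SD, n = 3), described without a test.

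The co-repressors other than NRIP1 were higher or not called. TLE3 (chromosome 15, 70047790 to 70097917) had replicates that lay close together, at 52.34, 51.54 and 52.24 FPKM with siCDK12 and 46.91, 46.94 and 47.32 FPKM with siCtrl. The groups were separated by more than 4 FPKM while each group spanned less than 1 FPKM. The mean rose from 47.1 ± 0.229 to 52.0 ± 0.436 FPKM (SD, n = 3), a log2 fold change of 0.14 (SE 0.0330, 95% interval 0.07 to 0.22, limma adjusted p = 0.00826). This rise of small size kept its call in all 17 alternatives, with adjusted p from 0.00738 to 0.0329.

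NCOR1 (chromosome 17, 16029157 to 16215534) was at 23.27, 25.10 and 24.05 FPKM with siCDK12 and 25.43, 24.30 and 22.90 FPKM with siCtrl. The 2 groups covered nearly the same range, and the log2 fold change was -0.00, with a 95% interval of -0.11 to 0.10 (limma adjusted p = 0.968). NCOR1 and TTC19, a gene on the opposite strand, share 248 exon bases in their canonical transcripts, 2.32% of the NCOR1 transcript. TTC19 rose from 14.7 ± 0.365 to 17.1 ± 0.724 FPKM (SD, n = 3, limma adjusted p = 0.00692), and no source used here states whether the counting used strand, so reads in the shared bases cannot be told apart.

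LCOR (chromosome 10, 96832298 to 96995956), which recruits CtBP proteins and deacetylases as NRIP1 does, was the least abundant of the 9. Its values were 4.15, 4.72 and 4.32 FPKM with siCDK12 and 4.13, 4.34 and 4.08 FPKM with siCtrl. The groups overlapped, with a log2 fold change of 0.07 and a 95% interval of -0.09 to 0.23 (limma adjusted p = 0.519). A fall of the size of that in NRIP1 was thus outside the interval for LCOR. Leaving out siCDK12 replicate 2 gave 0.02, leaving out siCDK12 replicate 1 gave 0.11, and values were 0.03 to 0.04 with median-ratio or quantile scaling or relative to genes of similar transcript length, not called in any. Summed over the 4 co-repressors, the level was 87.1 ± 0.807 FPKM with siCDK12 and 86.9 ± 1.48 FPKM with siCtrl (SD, n = 3), and these sums overlapped. Most of both sums was TLE3, which rose while NRIP1 fell, so the sum does not show that each gene held its level.

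**Figure D2:**
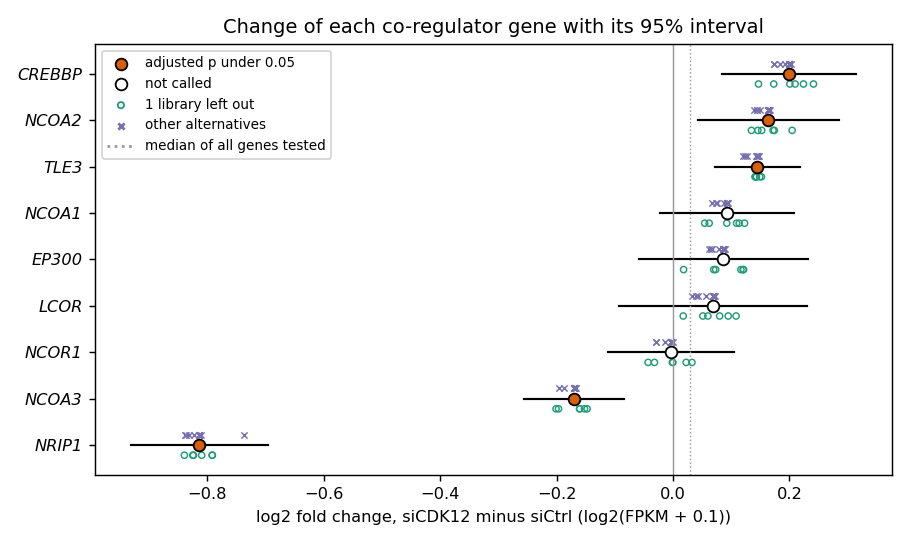
Log2 fold change of each gene, siCDK12 minus siCtrl on the log2(FPKM + 0.1) scale (horizontal axis), as a large point with its 95% interval, filled where the limma adjusted p was under 0.05. Small open circles leave out 1 library, small crosses are the other alternatives and the dotted line is the median of all genes tested, 0.03. NRIP1 lies at -0.81, apart from the other 8 genes, which lie between -0.17 and 0.20.

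In the order of levels, NRIP1 and NCOA2 changed places around EP300. With siCtrl the order by mean FPKM was NCOA3, TLE3, CREBBP, NCOR1, NCOA1, NRIP1, EP300, NCOA2 and LCOR, and the neighbours CREBBP and NCOR1, and EP300 and NCOA2, had overlapping ranges. With siCDK12 the order was NCOA3, TLE3, CREBBP, NCOR1, NCOA1, NCOA2, EP300, NRIP1 and LCOR, where only NCOA2 and EP300 had overlapping ranges among neighbours. NRIP1 went from rank 6 to rank 8, and NCOA2 went from rank 8 to rank 6. NCOA3 made up 53.3% ± 0.351 of the summed FPKM of the 9 genes with siCtrl and 49.3% ± 0.446 with siCDK12 (SD, n = 3), and the share of NRIP1 was 3.75% ± 0.0431 and 2.21% ± 0.0667.

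Library differences that the groups do not explain touched most of the 9 genes. Each gene had a canonical transcript between 5736 and 16001 bases, in the longest quartile of genes tested (median of all genes 3283 bases), and in that quartile 12% of genes were called higher and 11.5% lower. In siCDK12 replicate 2 the median deviation from the group mean was 0.03 (log2) for the longest quartile and -0.03 for the shortest. The 9 co-regulators deviated there by a median of 0.06, with 8 of them above 0, led by EP300 (0.14), CREBBP (0.10) and LCOR (0.10), and TLE3 at -0.01. In siCtrl replicate 3 the longest quartile was at -0.03 and the 9 genes at a median of -0.05, again with TLE3 as the exception at 0.01. Relative to genes of similar transcript length, an alternative chosen after seeing the data, NRIP1 was at -0.83 (limma adjusted p = 4.45e-06), NCOA3 at -0.19 (0.000806), CREBBP at 0.17 (0.00732), TLE3 at 0.12 (0.0183) and NCOA2 at 0.14 (0.0577), so that only NCOA2 lost its call.

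**Figure D3:**
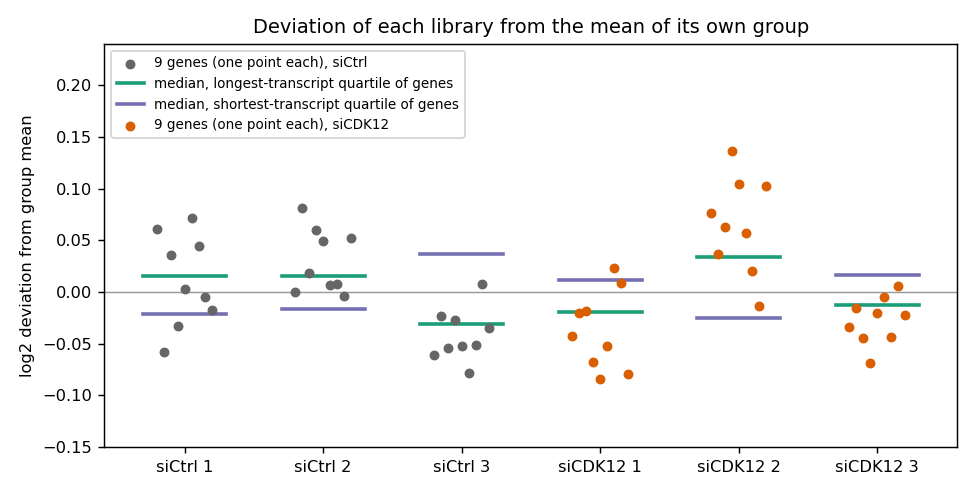
Deviation of each library from the mean of its own group on the log2 scale (vertical axis), for the 9 co-regulator genes (points, one per gene) and as medians of the longest-transcript (green line) and shortest-transcript (purple line) quartiles of the genes tested. Points and green line sit mostly above 0 in siCDK12 replicate 2 and below 0 in siCtrl replicate 3.

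Relative to the receptor they act with, 8 of the 9 co-regulators were higher and NRIP1 was lower. ESR1, which encodes ER, was itself lower with siCDK12 (log2 fold change -0.33, limma adjusted p = 0.000187), at 40.00, 41.85 and 39.37 FPKM against 50.16, 52.74 and 49.87 FPKM, so a gene that held its level has a ratio to ESR1 that is higher by about that amount. The ratio of NCOR1 to ESR1 was accordingly 0.33 higher on the log2 scale. The ratio was 0.53 higher for CREBBP, 0.50 for NCOA2, 0.48 for TLE3, 0.43 for NCOA1, 0.42 for EP300, 0.40 for LCOR and 0.16 for NCOA3. For NRIP1 it was 0.165, 0.157 and 0.160 with siCDK12 and 0.236, 0.219 and 0.222 with siCtrl, a log2 difference of -0.49, so NRIP1 fell further than ESR1 did. The groups did not overlap in any of the 9 ratios, and each had an exact two-sided permutation p = 0.1, also after Benjamini-Hochberg adjustment over the 9, which is the limit of this design. The ESR1 values themselves did not overlap between groups, so a gene that held its level, such as NCOR1, separates in this ratio too. The share of all genes tested whose ratio to ESR1 separates was not determined, so the separation of all 9 ratios shows nothing particular to these genes.

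**Figure D4:**
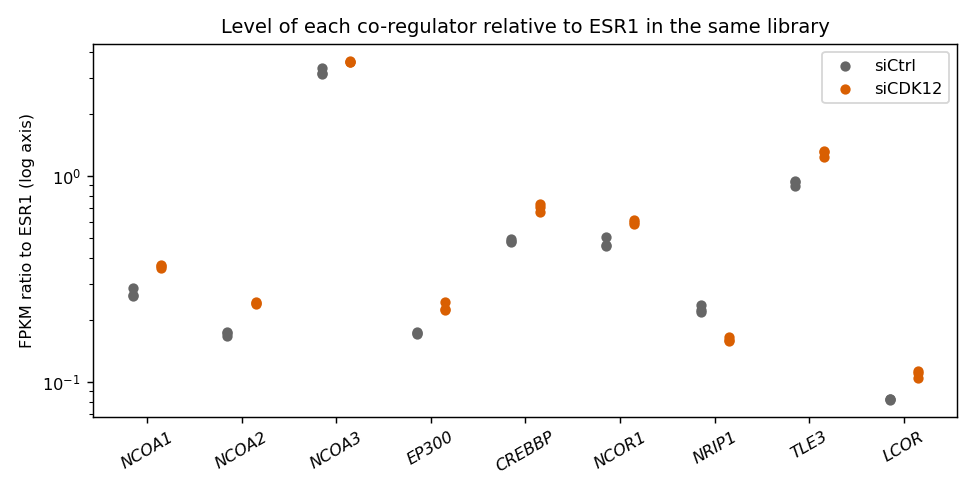
FPKM of each co-regulator divided by that of ESR1 in the same library (vertical axis, logarithmic), with 3 points per group. The siCDK12 points lie above the siCtrl points for 8 genes and below them for NRIP1, at 0.157 to 0.165 against 0.219 to 0.236.

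The ratio of NRIP1 to each p160 gene was lower with siCDK12, which follows from the changes already given. NRIP1 changed by -0.81 in log2 and the p160 genes by -0.17 (NCOA3) to 0.16 (NCOA2). These ratios describe that difference and are no separate evidence. NRIP1 to NCOA2 was 0.685, 0.658 and 0.652 with siCDK12 and 1.42, 1.25 and 1.29 with siCtrl, so that NRIP1 was above NCOA2 in every siCtrl library and below it in every siCDK12 library (log2 difference -0.99). The ratio to NCOA1 was 0.442 ± 0.0189 against 0.834 ± 0.00832 (SD, n = 3, log2 difference -0.92). The ratio to NCOA3 was 0.0448 ± 0.00129 against 0.0704 ± 0.000503 (SD, n = 3, log2 difference -0.65), the smallest of the 3 because NCOA3 was lower too. The exact permutation p was 0.1 for each, also after adjustment over the 3 ratios. The ratio of TLE3 to NRIP1, given as a description, was 8.01 ± 0.247 with siCDK12 and 4.10 ± 0.159 with siCtrl (SD, n = 3).

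Beyond the 9 genes, 56 further co-regulators were listed, of which 52 passed the filter: 10 were higher, 4 were lower and 38 did not pass the test, with a median log2 fold change of 0.03, the same as for all genes tested. These counts over the 52 genes stand beside 28.3% called over all genes (16.1% higher and 12.3% lower). With a share near that background, the pooled counts show nothing particular to these co-regulators. The 4 lists that make them up were less even. The p160 and acetyltransferase partners had 4 genes higher and 2 lower of 11, and the other co-activators 3 higher and 0 lower of 19. The NCoR complex had 0 higher and 1 lower of 6, and the other co-repressors 3 higher and 1 lower of 16. Whether any 1 list departs from the background was not tested. Of the 14 calls, 7 held in every alternative (KAT2A, CCAR1, CITED1, PPARGC1A, GPS2, CTBP2 and TLE2) and 7 were lost in at least 1, and the count of rises fell to 3 without siCDK12 replicate 3.

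Of 11 partners of the p160 and acetyltransferase proteins, 4 were higher and 2 lower, with a median of 0.07. The lowest p was that of KAT2A (GCN5, an acetyltransferase), which rose from 37.0 ± 1.07 to 43.0 ± 0.844 FPKM (SD, n = 3, 0.22 in log2, limma adjusted p = 0.00202). CITED1, which binds p300 and CBP, fell from 1.73 ± 0.380 to 1.01 ± 0.0404 FPKM (log2 fold change -0.70, adjusted p = 0.00647), a low level at which siCtrl replicate 2 was the highest at 2.16 FPKM. Its change was -0.43 with a pseudocount of 1 and -0.54 without siCtrl replicate 2, called in both. CCAR1, a partner of p160 proteins, fell from 23.5 ± 0.850 to 20.6 ± 0.472 FPKM (log2 fold change -0.19, adjusted p = 0.00883). The rises of KAT2B (0.29), TADA3 (0.11) and CITED2 (0.17) were each lost in some alternative.

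Of 19 other co-activators, 3 were higher and 0 lower by limma, where 4 had an unadjusted p under 0.05. PPARGC1A (PGC-1alpha, a co-activator of genes of mitochondrial metabolism) was at 1.5, 1.58 and 1.44 FPKM with siCDK12 and 0.76, 0.80 and 0.92 FPKM with siCtrl. The groups did not overlap at this low level, and they differed by 0.80 in log2 (SE 0.133, limma adjusted p = 0.00148), against -0.16 for its paralog PPARGC1B, which did not pass the test. The siCtrl mean of PPARGC1A, 0.827 FPKM, was under the filter of 1 FPKM, so the gene was tested only through its siCDK12 level. With no filter on low values PPARGC1A was called too (limma adjusted p = 0.00519). With a pseudocount of 1 in place of 0.1 the PPARGC1A value was 0.46 (adjusted p = 0.00133, range over all alternatives 0.000824 to 0.00827). SRA1 (0.13, adjusted p = 0.0482) and DDX17 (0.12, adjusted p = 0.0393) were the other calls, and both were lost in most alternatives. NCOA4, NCOA5, NCOA6, NCOA7 and MED1, relatives or partners of the p160 genes by name or function, did not pass the test, with log2 fold changes from -0.06 to 0.05.

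Of the 6 genes of the NCoR complex, 0 were higher by limma and 1 was lower, with 1 unadjusted p under 0.05. GPS2, a subunit of the complex, was at 57.44, 58.36 and 55.91 FPKM with siCDK12 and 63.12, 67.29 and 69.38 FPKM with siCtrl. All siCDK12 values lay below the siCtrl values, at a log2 difference of -0.22 (SE 0.0414, limma adjusted p = 0.00310). The deacetylase HDAC3, also of this complex, was not called, at -0.08 in log2 (limma adjusted p = 0.159).

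Of 20 other co-repressors, 16 passed the filter, of which 3 were higher and 1 was lower. CTBP2, one of the CtBP proteins that NRIP1 and LCOR bind, was at 41.49, 39.07 and 40.39 FPKM with siCDK12 and 53.29, 54.95 and 54.75 FPKM with siCtrl. It fell in every siCDK12 library, with a log2 fold change of -0.43 (SE 0.0371, limma adjusted p = 2.35e-05), whereas its paralog CTBP1 did not pass the test (0.03, adjusted p = 0.610). The Groucho family members TLE2 (0.34, from 16.2 ± 0.543 to 20.6 ± 0.696 FPKM, adjusted p = 0.000406) and TLE5 (0.14, from 163 ± 3.29 to 179 ± 5.69 FPKM, adjusted p = 0.0150) rose as TLE3 did, TLE1 did not pass the test (0.06, adjusted p = 0.395), and TLE4 was at most 0.03 FPKM. TLE2 held its call in all 17 alternatives and TLE5 in 14 of 17. SIN3A (0.12, adjusted p = 0.0496) was called in 3 of 17, and LCORL, the relative of LCOR, did not pass the test (0.01, adjusted p = 0.932).

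**Figure D5:**
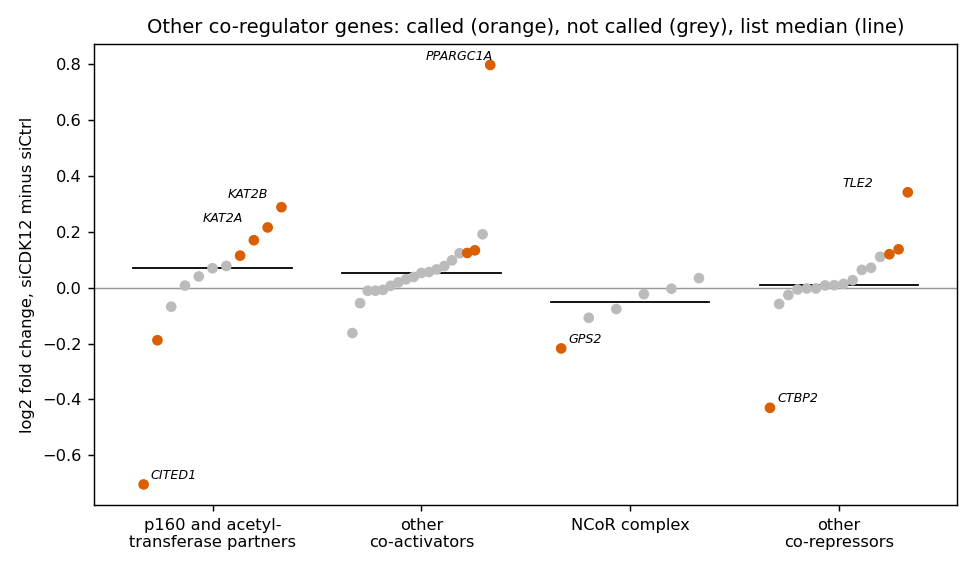
Log2 fold change, siCDK12 minus siCtrl (vertical axis), of the 52 other co-regulator genes tested, in 4 lists and sorted within each, with called genes in orange, genes not called in grey and each list's median as a line. The medians lie between -0.05 and 0.07, and PPARGC1A (0.80), CITED1 (-0.70) and CTBP2 (-0.43) lie farthest from 0. PPARGC1A passed the filter only through its siCDK12 level.

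Among the receptors that use these proteins, ESR1 was lower, RARA and RXRA did not pass the test (log2 fold changes -0.10 and -0.09), and ESR2 and PGR were below the filter, at no more than 0.39 and 0.34 FPKM.

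For each of the 5 called genes among the 9, the genes whose profile over the 6 libraries lay nearest were found among 8557 genes that averaged 5 FPKM or more, by the root mean square difference of centred log2 values. For NRIP1 these were RPRD1A (log2 fold change -0.85), RAPGEFL1 (-0.80) and SEC23A (-0.84), at differences of 0.0435 to 0.0455. For NCOA3 they were IQGAP1 (0.00806), FAM214A (0.0144) and DNAJC13 (0.0148), and for CREBBP they were RERE (0.0179), ARHGAP32 (0.0231) and NFIC (0.0242). TLE3 lay nearest to MARK2 (0.0113), GRK2 (0.0124) and RAC1 (0.0130), and NCOA2 to PHF8 (0.0183), SGSM2 (0.0184) and ABRAXAS2 (0.0195). The nearest profile of NRIP1 was farther from it than those of the other 4 were from theirs. Of the 11533 genes tested, 66 fell further than NRIP1, and whether the distance reflects how few genes changed that much was not tested.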

How the data were processed

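Total RNA of LY2 cells was sequenced on the BGISEQ-500 platform. Per the study's methods and the submitters' processing notes, the tools were SOAPnuke, Bowtie2, RSEM and DESeq2, on GRCh38. The deposited values are FPKM to 2 decimals, which the authors made as fragments normalised for transcript length and mapped total. RSEM assigns fragments in fractions, so whole fragments were not recovered, the depth is unknown and no counting interval is given.

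The 11533 of 17939 genes that averaged 1 FPKM or more were tested on log2(FPKM + 0.1) by limma 3.58.1 (R 4.3.3) with a variance trend, two-sided, and Benjamini-Hochberg adjustment over all genes tested. Fold changes on this scale understate those of low genes. The steps were tested on simulated data. Ratios within a library were compared with exact permutation tests. P-values measure the spread between these 6 libraries. The members and gene lists were chosen with earlier results of these data known. Named were all 9 members, CDK12, ESR1, close relatives of the members, up to 3 called genes per list with the smallest p and the 3 nearest profiles of each called member; KAT2B, TADA3, CITED2, PPARGC1B, HDAC3 and CTBP1 were named after their values were seen. Gene models came from RefSeq (GRCh38.p14) and GENCODE 44 canonical transcripts, which gave a length for 11496 of the genes tested. TLE5 is listed under its older symbol AES and was matched by gene ID. The alternatives changed the pseudocount (to 1 or 0.01), the filter (none, or 5 FPKM), the scaling (equal sums, median-ratio, quantile) or the variance estimate, blocked on replicate number, left out each library and, added after seeing the data, a comparison within genes of similar transcript length and the same alternatives for each other co-regulator called. Some genes of the lists are counted but not reported by name here.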

Additional observations from a re-analysis of the deposited data

How the results depend on the processing

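Over 152 alternative values for the 9 co-regulators, 136 kept their direction and side of the threshold, 14 lost the call (12 for NCOA2, 2 for CREBBP) and 2 changed sign, both for NCOR1, which was 0.02 without siCDK12 replicate 1 and 0.03 without siCtrl replicate 1 (over all 6 omissions, NCOR1 ranged from -0.043 to 0.032). LCOR was not tested at a mean of at least 5 FPKM. The adjusted p of NCOA2 was 0.0712 with no filter, 0.0571 with equal sums, 0.0849 with median-ratio scaling, 0.0634 with quantile normalization and 0.0520 with no variance trend. The number of co-regulators called higher went from 3 to 1 without siCDK12 replicate 2 or siCtrl replicate 3 (range 1 to 3). The number of other co-regulators called higher, 10, was 6 with no filter, 6 with median-ratio scaling, 4 with no variance trend and 3 to 7 with 1 library left out, and the cause was not tested. Of all genes, 1853 were called higher and 1416 lower (56.7% higher). The study, which tested counts with DESeq2 at the same limit, reported the opposite balance, with more genes down than up. The split of 1853 and 1416 became 1368 and 1681 (44.9% higher) with median-ratio scaling, 1552 and 1592 (49.4% higher) with quantile normalization and 1490 and 1877 (44.3% higher) relative to genes of similar transcript length. With 1 library left out, 1193 to 1607 genes were called higher, fewest without siCDK12 replicate 3. Deviations of same-numbered libraries correlated at -0.003, 0.020 and -0.028, so no deviation shared by replicate number was seen. Whether same-numbered libraries came from matched experiments is not known. A replicate block gave 1550 genes higher and 1208 lower and ended the call of NCOA2 (adjusted p = 0.0580), and of no other of the 9 genes. All 72 values of the ratios with 1 library left out kept their direction. That was fixed in advance, because the groups did not overlap in any of these ratios, so it is no test of them. With 3 libraries a group, no exact test could pass 0.05.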
